A study of Oryctolagus cuniculus with 10 samples.

Results

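N-linked glycosylation is the attachment of a preassembled sugar tree to asparagine residues of proteins as they enter the endoplasmic reticulum (ER). The tree is built on dolichol, a long isoprenoid alcohol made by a branch of the mevalonate pathway, from which squalene and cholesterol also derive. Liver cells secrete large amounts of glycosylated plasma proteins and use this machinery heavily. The genes described here encode this machinery, and they were chosen by symbol, as 36 named members. Of these, 35 had a row in the deposited gene table, which lists 19123 genes in all. They comprise 5 genes of dolichol synthesis, 15 of lipid-linked sugar assembly, 13 subunits of the oligosaccharyltransferase and 2 glucosidases. ALG10, which adds the last glucose of the tree, had no row under its symbol. LOC108177690 was counted as a member because the study names this transcript OST4, and it was itself picked by the study for its change in these livers. It and the row with the symbol OST4 thus carry the name of the same subunit. Each is counted below as a subunit of its own, so counts of subunits are counts of rows.

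The livers came from male wild-type New Zealand white rabbits. The squalene group (5 rabbits) received a diet with 1% sunflower oil and 0.5% squalene for 4 weeks, and the control group (5 rabbits) the same diet with 1% sunflower oil alone. All animals were fasted before the livers were taken, so both groups share the oil and the fast. Polyadenylated RNA was sequenced as paired reads, with 45.26 M to 46.12 M clean reads in each of the 10 libraries. The question was how dietary squalene influences hepatic gene expression.

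The deposited gene table holds 2 expression levels per gene, 1 for each diet, and none per rabbit. No spread between rabbits, standard error or test could therefore be computed for any gene, and each difference below is a ratio of 2 group values without a replicate check. The table does not state the unit of the levels. Levels of 1 or more had also lost their decimal mark, so the levels alone give the ratio of a gene only up to powers of 10. The columns of the study's own comparison were not used, and the position that brings it nearest to 1 was used, with a single exception given below. All 35 members had both levels at 1 or more, so their ratios all rest on this choice. For 32 genes and 0 members, the nearest position still had a log2 ratio beyond 1.4 upwards or downwards. Where both levels of such a gene were 1 or more, the next position lay about as far in the opposite direction. For those genes the rule hardly favours either direction. Where 1 level was below 1, all allowed positions lay on the same side of 0. LOC108177690 is not among the 32 by this criterion, but the digits alone do not settle its direction, for the reason given below. Ratios are given as squalene over control, so that values above 1, or positive log2 ratios, are higher on squalene.

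Apart from LOC108177690, no member differed by more than 1.5-fold between the diets. The exception made 1 member of 35, or 2.86%, while 7.69% of all genes were past 1.5-fold in either direction. A lower limit was set at 0.32 on the log2 scale, which is 25% higher or 20% lower. At this limit, 9 members were higher on squalene, or 25.7%, against 16.4% of all genes, and 1 member was lower, or 2.86%, against 12.8% of all genes. The members had a median log2 ratio of 0.10, with 21 above 0, or 60%, and 14 below. All genes had a median of 0.02, with 52.7% above 0. DPM1 was the lower one and lay almost at the limit, with a log2 ratio of -0.32, and STT3A, with -0.32 as well, lay just inside it. LOC108177690 is past the limit by the exception given below, so its place among the 9 was fixed beforehand. Without it, 8 of 34 members were past this limit upwards, or 23.5%, and 1 downwards. With LOC108177690 at the other decimal position given below, 8 members were past this limit upwards and 2 downwards. The members past the lower limit were unevenly spread over the steps of the pathway. The oligosaccharyltransferase held 6 of the 9 higher ones, lipid-linked sugar assembly held the other 3 and the lower one, and dolichol synthesis and the glucosidases held none. Of those 6 subunits, 5 had transcripts under 1100 bases, LOC108177690 among them. Among all genes with both levels at 1 or more, 37.3% of those under 1100 bases passed this limit upwards, against 14.5% of longer ones.

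**Figure D1:**
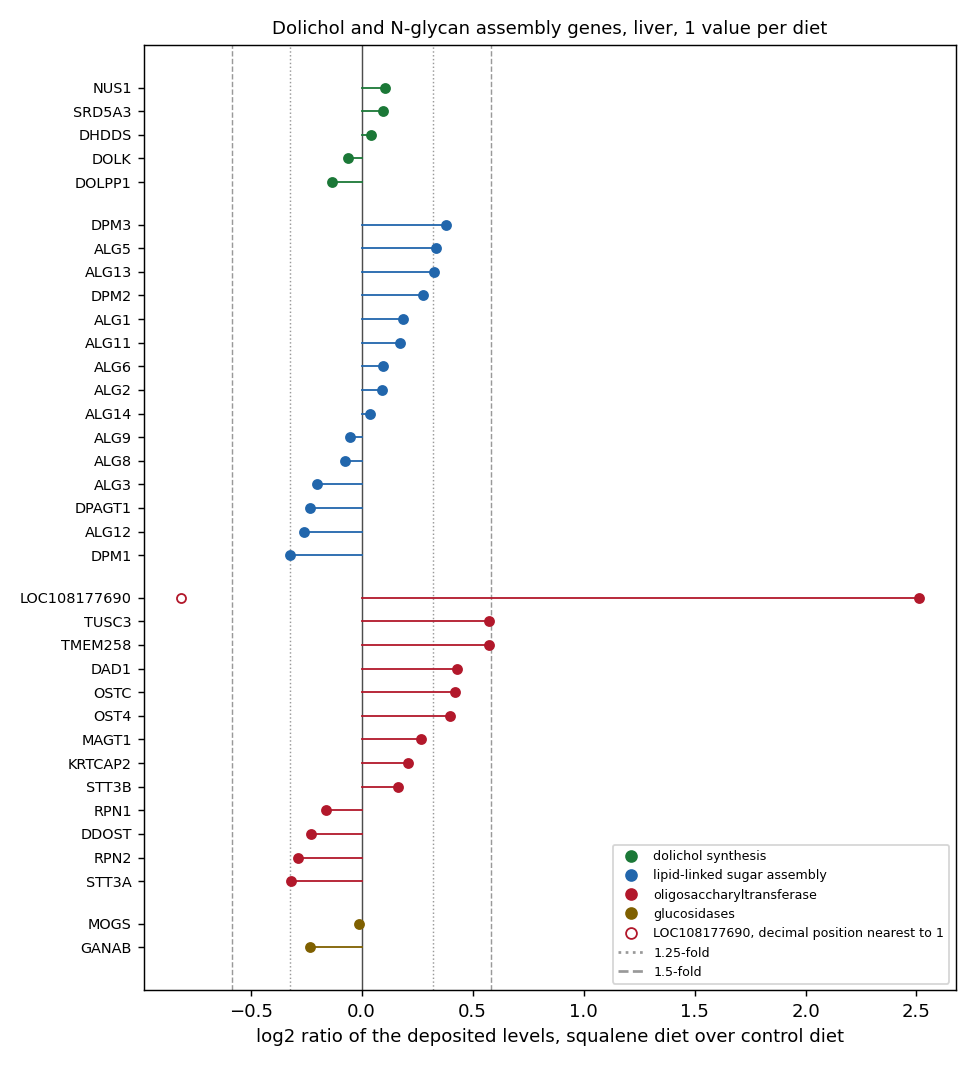
Log2 ratio of the deposited levels, squalene diet over control diet, for the 35 members grouped by their role, with dotted lines at the lower limit of 0.32 and dashed lines at 1.5-fold. Each point is a ratio of 2 group values with no error. The dolichol synthesis genes lie near 0, and 6 of the 13 oligosaccharyltransferase subunits lie beyond the right-hand dotted line. The open circle gives LOC108177690 at the decimal position nearest to 1.

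The genes of dolichol synthesis had ratios near 1, and none passed the lower limit. DHDDS and NUS1 form the cis-prenyltransferase that elongates farnesyl diphosphate into the dolichol backbone. The level of DHDDS on squalene was 1.03 times that on the control diet, and the level of NUS1 was 1.08 times. SRD5A3, which is needed to reduce polyprenol to dolichol, had a ratio of 1.07. DOLK, the kinase that makes dolichyl phosphate, had a ratio of 0.958. DOLPP1, the phosphatase that recycles dolichyl diphosphate after the sugar tree has been handed over, had a ratio of 0.911. The log2 ratios of these 5 genes ran between -0.13 and 0.10, with a median of 0.04.

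Several genes that supply the isoprenoid precursor had ratios well below those of this branch, and others did not. Of 7 listed genes, 5 had a row, since IDI1 and MVD had none under these symbols. Their median log2 ratio was -0.74, and 3 of the 5 were more than 1.5-fold lower on squalene, beside 571 of all 19123 genes. MVK (mevalonate kinase) had a ratio of 0.473, HMGCS1 (hydroxymethylglutaryl-CoA synthase) 0.494 and FDPS (farnesyl diphosphate synthase) 0.601. PMVK, the next kinase after MVK, had a ratio of 0.920. GGPS1, which makes geranylgeranyl diphosphate, had a ratio of 1.04, close to those of the dolichol branch. The difference between these 2 lists was not tested.

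The genes of lipid-linked sugar assembly went both ways, with 9 above and 6 below 0 and a median log2 ratio of 0.09. On the cytosolic face of the ER, DPAGT1 begins the tree by placing N-acetylglucosamine phosphate on dolichyl phosphate, and its ratio was 0.851. ALG13 and ALG14 together add the next N-acetylglucosamine. ALG13, the catalytic subunit, had a log2 ratio of 0.32 and ALG14, its membrane anchor, 0.04. The mannosyltransferases that follow had ratios of 1.14 for ALG1, 1.06 for ALG2 and 1.13 for ALG11. Of these 6 cytosolic genes, 5 were above 1, and DPAGT1 was the one below.

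In the ER lumen, the remaining sugars come from dolichyl phosphate mannose and dolichyl phosphate glucose. The mannosyltransferases ALG3, ALG9 and ALG12 had ratios of 0.869, 0.963 and 0.836. The glucosyltransferases ALG6 and ALG8 had ratios of 1.07 and 0.949. Of these 5 lumenal genes, 4 were below 1, with a median log2 ratio of -0.08, against 0.13 for the 6 cytosolic genes. This division by side of the membrane was made after the values had been seen. A row named LOC100338055, which the RefSeq table calls ALG10B, a glucosyltransferase of the last step, had a ratio of 0.892. It was looked up after the values had been seen and is not counted among the members.

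The enzymes that make the lipid-linked donor sugars differed among themselves. Dolichyl phosphate mannose synthase consists of DPM1, DPM2 and DPM3, of which DPM1 is the catalytic subunit. DPM1 had leading digits of 4.16 on squalene and 5.20 on control, a log2 ratio of -0.32. DPM2 and DPM3, the small membrane subunits that stabilise the enzyme, had ratios of 1.21 and 1.30. The catalytic and the stabilising subunits of this enzyme thus lay on opposite sides of 1. The transcripts of DPM2 and DPM3 are short, at 961 and 423 bases, and that of DPM1 has 2359. Against genes of like length, as described below, DPM2 and DPM3 stood at the 61.6th and 65.5th percentile and DPM1 at the 11.4th. The part of length in this contrast was not tested. ALG5, which makes dolichyl phosphate glucose, had a ratio of 1.26.

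The oligosaccharyltransferase, which transfers the finished tree to the protein, had the highest median of the 4 groups, with a log2 ratio of 0.27. Of its 13 subunits, counted as rows, 9 were above 0, or 69.2%, beside 52.7% of all genes. LOC108177690 and OST4, which carry the name of the same subunit, were both counted among the 9. STT3A and STT3B are its alternative catalytic subunits, of which STT3A works at the translocon during protein entry and STT3B acts also after it. The leading digits of the STT3A levels were 1.57 on squalene and 1.96 on control, a ratio of 0.803. STT3B had a ratio of 1.12. The large shared subunits were all below 1, at 0.894 for RPN1, 0.819 for RPN2 and 0.853 for DDOST. STT3A and these 3 subunits were the 4 members of the complex with a lower level on squalene, and none of them passed the lower limit.

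Apart from the OST4 rows, given below, the remaining subunits were all higher on squalene. DAD1, a shared subunit whose loss triggers apoptosis in hamster cells, had a ratio of 1.35. OSTC, which links STT3A complexes to the translocon, had a ratio of 1.34. KRTCAP2, the other subunit particular to STT3A complexes, had a ratio of 1.16. TMEM258, a small shared membrane subunit, had leading digits of 4.13 on squalene and 2.78 on control, a ratio of 1.49. TUSC3 and MAGT1 are the oxidoreductase subunits that occur in STT3B complexes, one of them at a time. The leading digits of TUSC3 were 4.96 on squalene and 3.33 on control, a ratio of 1.49. MAGT1 had a ratio of 1.20. Both oxidoreductases and STT3B were thus above 1, while in STT3A complexes the catalytic subunit was below 1 and the 2 accessory subunits above it.

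OST4, a very short membrane subunit that stabilises the complex, is present in the table under several rows. The row with the symbol OST4 had leading digits of 3.10 on squalene and 2.35 on control, a ratio of 1.32. LOC108177690 had leading digits of 6.31 on squalene and 1.11 on control. At the decimal position nearest to 1, the rule used for all other genes, its ratio is 0.569, a log2 ratio of -0.81 and a lower level on squalene. The value used here is instead a ratio of 5.69, a log2 ratio of 2.51 and a higher level on squalene. The reason is that the study took transcripts past a log2 ratio of 1.5 in either direction to RT-qPCR and assayed this one, and of the positions past that limit 2.51 is the nearest to 1, while the next lower position of -4.13 passes it too. This exception was chosen after the data had been seen. As computed here, without the fold changes of the study, both the size and the direction for LOC108177690 rest on that selection, since the digits of the levels alone do not settle them.

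With LOC108177690 at -0.81, the oligosaccharyltransferase median becomes 0.21, with 8 subunits above and 5 below 0, and with 5 subunits past the lower limit upwards and 1 downwards. The transcript is 365 bases long, and that of OST4 is 390 bases. A transcript described as OST4-like is also listed as LOC108178858, with a ratio of 1.02, and one described as OST4 is listed as LOC108176510, with a ratio of 1.23. These rows were looked up after the values had been seen. Reads from such closely related short transcripts could be divided between the rows in counting, so the value of each copy is uncertain.

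The glucosidases act on the tree once it has been transferred. MOGS (glucosidase I), which removes the outermost glucose, had a ratio of 0.992. GANAB, the catalytic subunit of glucosidase II, which removes the inner glucoses, had a ratio of 0.851. Neither passed the lower limit, and both were below 1.

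Within the members, the ratio varied with the length of the transcript. The 9 members under 1100 bases had a median log2 ratio of 0.40, with 8 above 0. The 26 longer members had a median of 0.01, with 13 above and 13 below 0. Among all genes with both levels at 1 or more, 70.1% of those under 1100 bases and 48.5% of longer ones were above 0. With LOC108177690 at the decimal position nearest to 1, 7 of the 9 short members were above 0 and their median was 0.38. Across the 35 members, the log2 ratio and the log2 length had a Pearson correlation of -0.53 and a Spearman correlation of -0.46, and without LOC108177690 these were -0.46 and -0.41. The points are genes and share the same 2 group values, so they are not independent replicates. Among the oligosaccharyltransferase subunits, the 6 under 1100 bases (DAD1, OSTC, OST4, LOC108177690, TMEM258 and KRTCAP2) were all above 0, or 5 of 6 with LOC108177690 at the decimal position nearest to 1. Of the 7 longer ones, 3 were above 0, with a median of -0.16. The limit of 1100 bases was set after the values had been seen.

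The same relation ran through the whole table. Over all 19123 genes, the Pearson correlation of log2 ratio with log2 length was -0.26 and the Spearman correlation -0.28. Genes under 1100 bases had a median log2 ratio of 0.11 and longer genes one of 0.00. Among genes with both levels at 1 or more, as in all members, these medians were 0.21 and -0.01. Set against genes of like length, within 0.32 on the log2 scale and with both levels at 1 or more, 19 of the 35 members lay above the median, 7 of the 9 short members and 8 of the 13 oligosaccharyltransferase subunits. With LOC108177690 at the decimal position nearest to 1, these counts were 18, 6 and 7. TUSC3 stood at the 95.4th percentile of genes of its length, ALG13 at the 91.9th, MAGT1 at the 85.4th and ALG11 at the 83.4th. OSTC stood at the 80.1st percentile, TMEM258 at the 79.5th, DAD1 at the 70.8th, OST4 at the 66.5th and KRTCAP2 at the 46.5th. DPM1 was at the 11.4th percentile, DDOST at the 13.5th, RPN2 at the 13.6th and STT3A at the 13.9th. Close to these were ALG12 at the 15.6th, DPAGT1 at the 16.9th, ALG3 at the 18.7th and DOLPP1 at the 19.4th. The part of transcript length in the ratios of the short subunits was not tested.

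**Figure D2:**
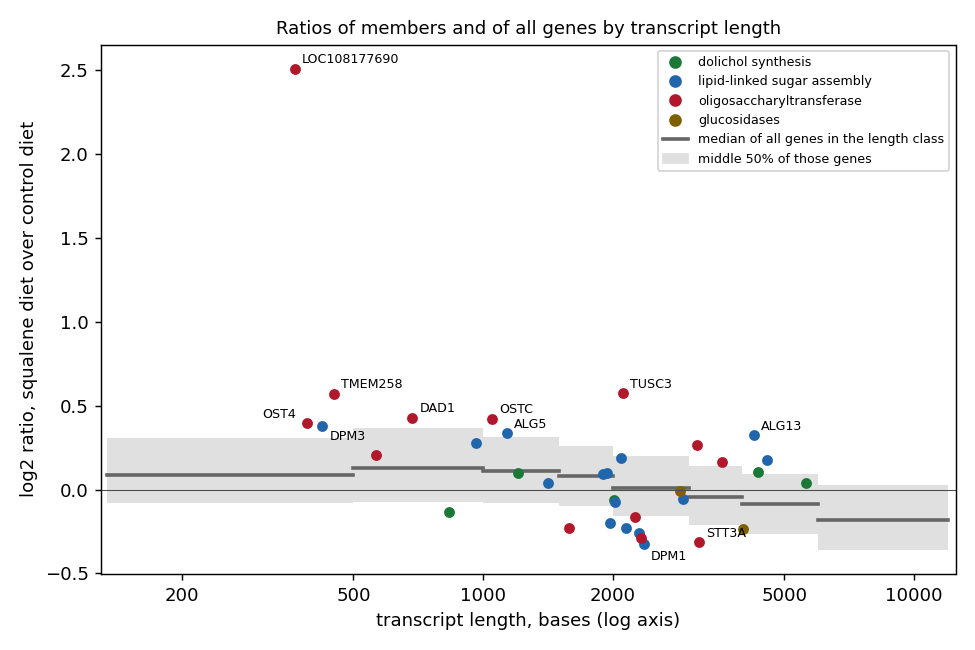
Log2 ratio, squalene diet over control diet, against transcript length on a log axis, with members as coloured points and, in grey, the median and middle 50% of all genes in each length class. The grey classes also hold genes with a level below 1, which no member has, so they are not matched to the members in level. Of the 9 members under 1100 bases, 8 lie above 0, beside 70.1% of genes of that length with both levels at 1 or more. The median of all genes falls to below 0 in the longest classes. TUSC3 and ALG13 are among the members above, and DPM1, DDOST, RPN2 and STT3A among those below, the middle of genes of their length.

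The steps before and after assembly showed few large ratios. Of 10 genes that make the nucleotide sugars, the median log2 ratio was 0.07, with UGP2, which makes UDP-glucose, at a ratio of 1.35 and UAP1, which makes UDP-N-acetylglucosamine, at 1.23. PMM1, a phosphomannomutase, had a ratio of 0.688 and GFPT1, which starts hexosamine synthesis, one of 0.950. MPDU1, needed to use the dolichol-bound sugars, had a ratio of 1.09. Of 10 genes for glucose trimming and the lectins that read the trimmed tree, 9 had a row, MAN1B1 having none. Their median log2 ratio was 0.05. EDEM3, which trims mannose on misfolded proteins, had a ratio of 0.736 and UGGT1, which adds glucose back to misfolded proteins, 0.784. PRKCSH, the partner subunit of GANAB, had a ratio of 1.18 and EDEM2 one of 1.13.

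The translocon, through which proteins enter the ER, had a median log2 ratio of 0.27 over 9 genes, equal at this rounding to that of the oligosaccharyltransferase. SEC62 had a ratio of 1.30, SSR2, a subunit of the translocon-associated protein complex, 1.27 and SEC61B, a small channel subunit, 1.26. SSR4 had a ratio of 1.22 and SEC61G, which gave the median, 1.20. The transcripts of SSR2, SEC61B, SSR4 and SEC61G have 1112, 713, 522 and 483 bases, and that of SEC62 has 2582. The part of length in this median was not tested. SEC61A1, the pore-forming subunit, had a ratio of 0.761, and SEC63 one of 0.985. In the Golgi, where the trees are remodelled, 10 genes had a median of 0.01 and none passed the lower limit. FUT8, the core fucosyltransferase, had a ratio of 1.19 and MAN1A2 one of 1.16, while ST6GAL1, a sialyltransferase, had 0.817 and MGAT3 0.871. NGLY1 and ENGASE, which release the trees from proteins, had ratios of 1.07 and 1.01.

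**Figure D3:**
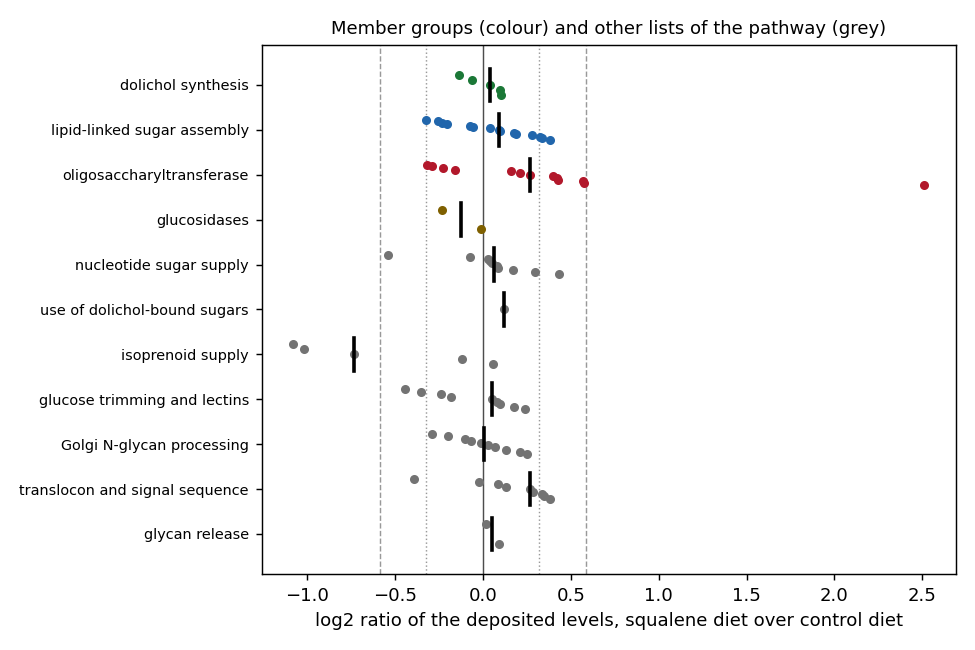
Log2 ratio, squalene diet over control diet, of each gene of the 4 member groups in colour and of the other lists of the pathway in grey, with a black bar at the median of each list. Dotted and dashed lines mark log2 ratios of 0.32 and a 1.5-fold difference. The isoprenoid supply genes have a median of -0.74, while the dolichol synthesis genes lie between -0.13 and 0.10.

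Markers of liver cell types had ratios on both sides of 1. Hepatocyte markers, 6 of 7 with a row (SERPINA1 had none), had a median log2 ratio of 0.13 and were all listed at levels of 1 or more. Of these 6, 4 were above 0 and 2 below, from CPS1 with a ratio of 0.761 to TTR with 1.35. The 4 endothelial markers, with transcripts of 3368 to 8799 bases, were all below 0 on the log2 scale, with a median of -0.30. Of the 3 lymphocyte markers, CD3E and CD79B had ratios of 1.31 and 1.39 and transcripts of 919 and 1153 bases, and PTPRC, with 5106 bases, had a log2 ratio of 0.00. Over all genes, 52.7% were above 0. CD3E and CD79B, with the 2 shortest transcripts of these 2 lists, had their 2 highest ratios, and the part of length was not tested. Cholangiocyte markers (3 of 4, without KRT19) had a median of -0.14, stellate cell markers -0.03 and macrophage markers 0.08. Each of these lists had genes on both sides of 1. The cholangiocyte ratios were 0.812 for KRT7, 0.906 for SOX9 and 1.43 for EPCAM. Stellate cell markers ran from 0.836 for COL1A1 to 1.26 for DCN, and macrophage markers from 0.923 for MARCO to 1.16 for CD68. Of the muscle markers, MYH7 had no row, and the direction of MYH6 and TTN is not settled by the digits. In whole liver, fewer cells of a type and less RNA per cell cannot be told apart, and the part of cell composition in the ratios of the members was not tested.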

How the data were processed

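Liver RNA of 5 rabbits on the squalene diet and 5 on the control diet was sequenced on the DNBseq platform. The labels give 5 animals per diet, although 1 figure legend of the study speaks of partial pooling. The authors filtered the reads and aligned them with HISAT2 to the OryCun2.0 assembly. StringTie served to add transcripts, and Bowtie and RSEM gave the gene levels. Tool versions are not given in the sources used here.

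The deposited gene table holds the authors' level per diet, in a unit it does not state, with the log2 fold change, p-value, adjusted p-value and direction of the authors' comparison. Those comparison columns were not used. The authors' tables of splicing events, variant sites and library statistics were deposited too. No member had an event among the 46 listed, and variant sites were not used here. Library names match no single sample label, so only the range of clean reads is given.

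Ratios of the 2 levels were computed with Python 3.11.15, numpy 2.4.6 and pandas 2.3.3, with the decimal position nearest to a ratio of 1. No filter on low levels was used, and no pseudocount. The rule misplaces genes whose true ratio is beyond about the square root of 10, so no gene was ranked over the whole table. For LOC108177690 the position that passes the study's RT-qPCR limit was used, a choice made after the data were seen. The code was tested on simulated ratios within the reach of this rule, which checks the code and not the rule itself. Plots were drawn with matplotlib 3.10.9. Depth per gene is unknown, so no counting interval is given.

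The planned test across rabbits could not be run, since the table has no value per rabbit. Every member is named. Of the other lists of the pathway, genes past 1.5-fold are named, or otherwise those with the 2 highest and 2 lowest ratios. A few more genes, and the genes named from the marker lists, were picked after their values were seen. In the other lists, 2 genes are not reported here and were left out of the counts and medians. Members and lists were chosen with earlier results of these data known. RefSeq annotation of assembly mOryCun1.1, used for names only, matched 34 of the 35 member IDs, all but that of DPM2. Alternatives were other fold limits, centring on the median of all genes, leaving out single members and other decimal positions.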

Additional observations from a re-analysis of the deposited data

How the results depend on the processing

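The number of members past the fold limit was 1 at 1.5-fold, 10 at a log2 limit of 0.32 and 0 without LOC108177690, and it was 1 at 2-fold, after centring on the median of all genes and with LOC108177690 at the decimal position nearest to 1. In that last case the member past the limit is lower on squalene, since the log2 ratio of LOC108177690 is then -0.81 instead of 2.51, and this alternative was added after the data had been seen. The median of the members stayed within 0.1 (log2) of 0.10 under each alternative tried, from 0.08 after centring to 0.10, and the medians of the 4 groups moved by less than 0.1 as well. The limit of 0.1 was set without a replicate spread, which these values do not have. For each of the other 34 members, the next decimal position would give a log2 ratio 3.32 away with the opposite sign. No paired analysis was possible because the table holds 1 level per diet and no value per rabbit. For the same reason no rabbit could be left out, and nothing could be computed for splicing, since no member has a listed event. Counts per gene were not used here, so the precision that depth gives each ratio is unknown.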

Other observations

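Further rows of the table are annotated as relatives of members, and they were looked up after the values had been seen. LOC103351004, described as a ribophorin I (RPN1) like subunit of the oligosaccharyltransferase, had a ratio of 0.624 (squalene over control) beside 0.894 for RPN1, so both were lower on squalene. LOC100344143, described as an ALG13 homolog, had a log2 ratio of 0.45 beside 0.32 for ALG13. A predicted gene without a gene number, annotated as a dolichyl-phosphate beta-glucosyltransferase like ALG5, had a ratio of 1.21 beside 1.26 for ALG5. How reads were divided between such relatives and the members they resemble was not tested, so these values are uncertain and add no independent support.

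The pathway annotation of the table does not place all members in this machinery. The rows of OST4, LOC108177690, LOC108178858 and LOC108176510 carry the entries of a mitochondrial nucleoside diphosphate hydrolase, NUDT19, and of the receptor-like kinase RYK. The row of KRTCAP2 carries that of the DNA repair protein XPA, and the rows of OSTC and TMEM258 carry no entry. A list of the oligosaccharyltransferase drawn from that annotation would leave these rows out.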
